A study of Mus musculus with 15 samples.

Results

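The cluster of mir-322, mir-503, mir-351, mir-542 and mir-450 is a group of miRNA genes that lie close together on the mouse X chromosome. Its members were taken by name as every listed mature miRNA of mir-322, mir-503, mir-351, mir-542, mir-450a-1, mir-450a-2 and mir-450b, with both arms of each precursor. This gave 14 of the 1836 miRNAs listed, from 7 of 918 precursors. Reads were found for 11 of the 14 and the other 3 were listed at 0 in all 15 libraries.

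Small RNAs from left ventricular (LV) heart tissue were sequenced in 3 groups of 5 mice. AGAT (arginine:glycine amidinotransferase) makes homoarginine and catalyses the initial step of creatine synthesis. The wt group carried intact AGAT and received no supplement. The AGAT-/- group was homozygous for the AGAT knockout and received no supplement. The AGAT-/-hArg group had the same genotype and was given homoarginine (hArg) for 4 weeks through osmotic mini pumps. All mice came from heterozygous breeding on a C57BL/6J background and were littermates, and their age is not given in the sources used here. Sex does not appear in the sample labels used here and was not part of any comparison of these X-linked miRNAs. Libraries of wt and AGAT-/- were run on lane 8 and those of AGAT-/-hArg on lane 2, so that supplementation and lane cannot be told apart in any comparison with AGAT-/-hArg. AGAT mRNA was not analysed here. The libraries held 365634 to 570492 reads assigned to mature miRNAs, with a median of 445454.

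A miRNA cluster is a set of precursors close enough in the genome to be cut from shared primary transcripts. Each precursor gives a mature miRNA from its 5p arm and another from its 3p arm, and the seed near the 5' end of the mature strand directs it to target mRNAs. mir-322, the mouse counterpart of human miR-424, and mir-503 are known as regulators of the cell cycle and of muscle differentiation.

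The 7 precursors stood on the minus strand of chromosome X within 6353 bases, chrX:53047997-53054349 (GRCm38, GENCODE M21). In the direction of transcription the order was mir-322 (53054255 to 53054349), mir-503 (53053984 to 53054054), mir-351 (53053255 to 53053353), mir-542 (53049403 to 53049487), mir-450a-2 (53048299 to 53048367), mir-450a-1 (53048154 to 53048244) and mir-450b (53047997 to 53048078). The widest gap, 3767 bases, separated mir-351 from mir-542, and the 3 mir-450 precursors stood only 54 and 75 bases apart. The RefSeq lncRNA C430049B03Rik (53053112 to 53057190) spanned mir-322, mir-503 and mir-351 and none of the other 4 precursors. In GENCODE M21 the gene of that name (53055046 to 53057190) ended before mir-322, and no GENCODE gene other than the precursors themselves overlapped any of the 7.

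All 14 members were matched to mature sequences in RefSeq (GRCm38.p6). The sequences are written 5' to 3' in lower case with the seed, bases 2 to 8, in capitals. mir-322-5p is shown first with miRNAs of the mir-15/16 seed family, since it carried most reads of the cluster and shares its seed with them, whereas mir-503-5p shares bases 2 to 7 but not base 8 (A8G, counted from the 5' end of mir-322-5p).
mir-322-5p: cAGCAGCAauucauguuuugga
mir-497a-5p: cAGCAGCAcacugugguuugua
mir-195a-5p: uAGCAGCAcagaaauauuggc
mir-503-5p: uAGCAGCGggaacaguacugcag

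mir-351-5p has the seed of the mir-125 family. The 8 bases at its 5' end equal those of mir-125b-5p, and of the 22 positions compared 10 were the same.
mir-351-5p: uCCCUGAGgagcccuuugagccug
mir-125b-5p: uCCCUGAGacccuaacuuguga

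The mir-450 sequences are shown because they are so alike that reads could be assigned to more than one of them. mir-450a-5p is the same sequence from both mir-450a precursors, and mir-450b-5p departs from it within the seed (G7A and A8G, counted from the 5' end of mir-450a-5p). mir-450a-1-3p and mir-450b-3p are identical over the first 18 of 22 bases, seed included, and differ only by A19G and A20C, whereas mir-450a-2-3p has another seed. How reads that match several miRNAs were assigned is not given in the sources used here, so the values of the mir-450a and mir-450b 3p arms are uncertain.
mir-450a-5p: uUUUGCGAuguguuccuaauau
mir-450b-5p: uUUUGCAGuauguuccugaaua
mir-450a-1-3p: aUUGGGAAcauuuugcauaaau
mir-450b-3p: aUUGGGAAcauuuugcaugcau
mir-450a-2-3p: aUUGGGGAugcuuugcauucau

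The remaining miRNAs with more than 10 reads in every library had seeds found in no other member of the cluster. mir-542-3p is given beside its partner arm because the 2 arms of that precursor were listed so differently.
mir-322-3p: aAACAUGAagcgcugcaacac
mir-503-3p: gAGUAUUGuuuccacugccugg
mir-542-5p: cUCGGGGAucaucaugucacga
mir-542-3p: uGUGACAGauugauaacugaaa

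The cluster made up 3.62% to 4.67% of the reads of a library. Its share was 4.25% ± 0.358 in wt, 4.05% ± 0.256 in AGAT-/- and 4.23% ± 0.278 in AGAT-/-hArg (SD, n = 5 each). The lowest share was that of AGAT-/- mouse 6 and the highest that of AGAT-/-hArg mouse 13, and the ranges of the 3 groups overlapped. By reads summed over the 15 libraries, mir-322-5p was the 5th most abundant of the 1836 miRNAs, mir-351-5p the 9th and mir-322-3p the 11th. These 3 together held 96.3% to 97.2% of the reads of the cluster in each library. These shares and ranks are those of the list as counted, in which arms usually abundant in heart muscle, such as the 3p arms of mir-1a and mir-133a, were at 0.

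Levels differed far more between members than between mice. Mean CPM (read counts scaled to a common library size with factors from the trimmed mean of M-values, TMM) over the 15 mice was 24967 for mir-322-5p, 10988 for mir-351-5p, 4540 for mir-322-3p, 855 for mir-450b-5p, 251.9 for mir-503-3p and 125 for mir-542-5p. The least abundant members with reads were mir-450b-3p at 32.9 CPM, mir-503-5p at 20.2, mir-450a-2-3p at 7.23, mir-351-3p at 6.85 and mir-450a-1-3p at 4.59. From mir-322-5p down to mir-503-3p the ranges over the 15 mice did not overlap between neighbours in this order. mir-503-3p stood above mir-542-5p in 15 of 15 mice although their ranges overlapped slightly, and mir-450b-3p stood above mir-503-5p in 12 of 15 mice. The 3 members at the bottom of the order, with 0 to 8 reads per library, had ranges that overlapped. mir-450a-2-3p had more reads than mir-351-3p in 8 mice and fewer in 4, and mir-351-3p had more than mir-450a-1-3p in 9 mice and fewer in 2. mir-450a-2-3p had more reads than mir-450a-1-3p in 10 mice, as many in 4 and fewer in 1.

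**Figure D1:**
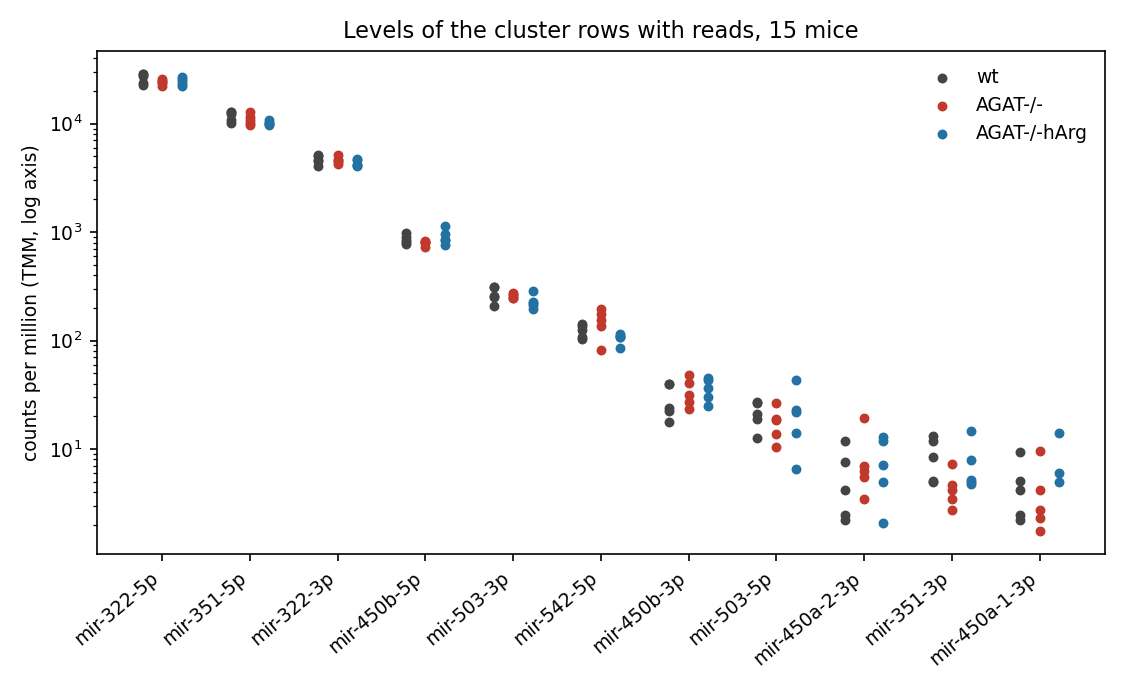
CPM of the 11 cluster members with reads on a log10 axis, 1 point per mouse, coloured by group and ordered by the mean over 15 mice. The 5 most abundant members occupy ranges that do not overlap, whereas the last 3 overlap widely; 2 AGAT-/-hArg mice with 0 reads of mir-450a-1-3p cannot be drawn on this axis.

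The arm with more reads was the 5p arm for mir-322, mir-351, mir-542 and mir-450b and the 3p arm for mir-503, mir-450a-1 and mir-450a-2. mir-503-5p, which has the mir-15/16-like seed, was counted 4 to 17 times per library against 76 to 159 times for mir-503-3p. mir-542-3p and both mir-450a-5p entries were listed at 0 in every library, which by counting alone would allow up to 5.26 to 8.20 CPM per library (3 reads). Across the whole list, 152 precursors had an arm with more than 10 reads in every library, and for 75 of them (49.3%) the other arm was listed at 0 throughout. The zeros of mir-542-3p and mir-450a-5p are therefore given as listed values, and whether they reflect absence from the tissue was not tested.

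Among the listed 5p arms of mir-322, mir-503, mir-15, mir-16, mir-195 and mir-497a, which share bases 2 to 7, mir-322-5p and mir-503-5p accounted for 87.3% to 90.5% of the reads in each library. The 7 entries from outside the cluster gave 20870 reads against 169951 for the cluster, and 3 of them (mir-15a-5p and both mir-16-5p entries) were listed at 0. mir-497a-5p was the most abundant of them at 2641 CPM and mir-195a-5p followed at 405 CPM. mir-125b-2-5p, which shares the seed of mir-351-5p, was listed at 0, and mir-125a and mir-125b-1 were not analysed here. The shares therefore describe the list as counted and depend on the entries at 0. Of both arms of mir-15, mir-16, mir-195 and mir-497, 0 of 6 tested passed the false discovery rate (FDR) of 0.05 with edgeR in AGAT-/- against wt, 0 of 5 in AGAT-/-hArg against AGAT-/- and 0 of 5 in AGAT-/-hArg against wt, where 2.14%, 0.690% and 2.99% of all miRNAs tested did. With so few entries, 0 is close to these shares. DESeq2 and limma-voom also called 0, and an unadjusted p under 0.05 was given to 0 by each of the 3 tools, where edgeR gave it to 10.7%, 7.41% and 12.5% of all miRNAs tested. The other arm of the mir-125b-2 precursor, mir-125b-2-3p (13711 CPM), passed the FDR in AGAT-/-hArg against wt with a log2 fold change of 0.27 (SE 0.07, edgeR FDR 0.0422) and had 0.28 in AGAT-/- against wt (SE 0.07, edgeR FDR 0.0523).

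The labelled tissue was compared with miRNAs known from the cell types of the heart. Of the 14 listed cardiac muscle miRNAs (mir-1a, mir-133a, mir-208 and mir-499), 8 had reads, with mir-499-5p the most abundant at 913 CPM. The 6 at 0 were the 3p arms of mir-1a-1, mir-1a-2, mir-133a-1, mir-133a-2, mir-208a and mir-208b, which include the arms usually abundant in heart muscle. Summed cardiac muscle CPM ranged from 1795 to 2106 in wt, 1923 to 2495 in AGAT-/- and 1998 to 2375 in AGAT-/-hArg. The skeletal muscle markers mir-206 and mir-133b, and the fibroblast markers mir-199a-2 and mir-214, were not analysed here.

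The other cell types had markers in every group. The smooth muscle list had 4 of 6 entries with reads, led by mir-145a-3p at 11664 CPM, and the red blood cell list had 5 of 8, led by mir-486a-5p at 3133 CPM. The white blood cell list had 5 of 8, led by mir-155-5p at 2908 CPM, the fibroblast list 1 of 4 (mir-199b-5p, 1117 CPM) and the endothelial list 4 of 4, led by mir-126a-3p at only 14.7 CPM. Listed at 0 were mir-143-3p, mir-145b-3p, mir-144-3p, both arms of mir-451a, both arms of mir-199a-1, mir-199b-3p, mir-223-3p, mir-142a-5p and mir-150-5p. Of these markers, 0 of 21 tested passed the FDR of 0.05 with edgeR in AGAT-/- against wt, 0 of 24 in AGAT-/-hArg against AGAT-/- and 1 of 23 in AGAT-/-hArg against wt, beside the same shares of all miRNAs (2.14%, 0.690% and 2.99%). An unadjusted p under 0.05 was given by edgeR to 2 of the 21, 2 of the 24 and 5 of the 23, against 10.7%, 7.41% and 12.5% of all miRNAs tested. The 1 was the cardiac mir-499-5p, with a log2 fold change of 0.43 (SE 0.10, edgeR FDR 0.0129). In AGAT-/- against wt its log2 fold change was 0.36 (SE 0.10, edgeR FDR 0.0647), and there DESeq2 and limma-voom each called 1 marker, the same mir-499-5p. In AGAT-/-hArg against AGAT-/- both called 0. The CPM of mir-499-5p did not overlap between wt and either of the other groups. Over the cardiac entries tested, mir-499-5p included, the median log2 fold change was -0.04 in AGAT-/- against wt (7 entries), 0.08 in AGAT-/-hArg against AGAT-/- (8) and 0.14 in AGAT-/-hArg against wt (8). Values there differed in sign, as mir-1a-2-5p had 0.58 (edgeR FDR 0.490), mir-208a-5p -0.22 (edgeR FDR 0.688) and mir-1a-1-5p -0.17 (edgeR FDR 0.887). In bulk tissue, fewer cells of a type and less of a miRNA per cell cannot be told apart.

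mir-322-5p, the most abundant member, was read 8751 to 13669 times per library. In wt mice 1 to 5 it reached 23563, 22720, 27364, 28898 and 28620 CPM. In AGAT-/- mice 6 to 10 it reached 22168, 23721, 23941, 24518 and 25734 CPM. In AGAT-/-hArg mice 11 to 15 it reached 23254, 22455, 27009, 25900 and 24635 CPM. The wt group held both low (mice 1 and 2) and high values (mice 3, 4 and 5), and 4 of 5 AGAT-/- mice lay within the wt range, with mouse 6 below it. Group means were 26233 ± 2896, 24017 ± 1295 and 24650 ± 1864 CPM (SD, n = 5 each).

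mir-322-3p, the less abundant arm of the same precursor, reached 4059, 4488, 4989, 5180 and 4625 CPM in wt mice 1 to 5. AGAT-/- mice 6 to 10 had 4230, 4637, 4618, 4440 and 5106 CPM, all within the wt range. AGAT-/-hArg mice 11 to 15 had 4175, 4076, 4589, 4703 and 4191 CPM, again all within the wt range, and 3 of them lay below every AGAT-/- mouse.

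mir-351-5p, which has the mir-125 seed, reached 10047, 10909, 12907, 12372 and 12829 CPM in wt mice 1 to 5. It reached 9664, 10807, 10229, 11613 and 12738 CPM in AGAT-/- mice 6 to 10. It reached 9765, 9995, 10106, 10809 and 10032 CPM in AGAT-/-hArg mice 11 to 15. The AGAT-/-hArg group had the narrowest spread (10141 ± 394 CPM against 11813 ± 1273 in wt and 11010 ± 1206 in AGAT-/-, SD, n = 5 each), and 3 of its 5 mice lay below all wt mice, whereas all 5 lay within the range of AGAT-/-.

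mir-450b-5p, from the far end of the cluster, had 806, 771, 852, 981 and 892 CPM in wt mice 1 to 5. AGAT-/- mice 6 to 10 had 723, 823, 818, 798 and 815 CPM. AGAT-/-hArg mice 11 to 15 had 843, 762, 1141, 957 and 837 CPM. AGAT-/-hArg mouse 13 was the highest of the 15, and 4 of the 5 supplemented mice lay above every AGAT-/- mouse while mouse 12 lay within that group.

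mir-503-3p had 309, 206, 310, 253 and 259 CPM in wt mice 1 to 5. AGAT-/- mice 6 to 10 had 246, 276, 246, 271 and 259 CPM. AGAT-/-hArg mice 11 to 15 had 227, 214, 285, 195 and 223 CPM. Apart from mouse 13, which stood above all AGAT-/- mice, the supplemented mice stood below all of them, and all AGAT-/- mice lay within the wt range.

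mir-542-5p was counted only 30 to 94 times per library. Counting error was a larger part of its spread than for mir-322-5p, mir-322-3p, mir-351-5p or mir-450b-5p. In wt mice 1 to 5 it had 136, 124, 107, 142 and 104 CPM. AGAT-/- mice 6 to 10 had 154, 135, 82.1, 196 and 176 CPM, with 3 mice above every wt mouse and mouse 8 below every wt mouse. AGAT-/-hArg mice 11 to 15 had 110, 107, 108, 84.6 and 116 CPM, all within the wide range of AGAT-/-.

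**Figure D2:**
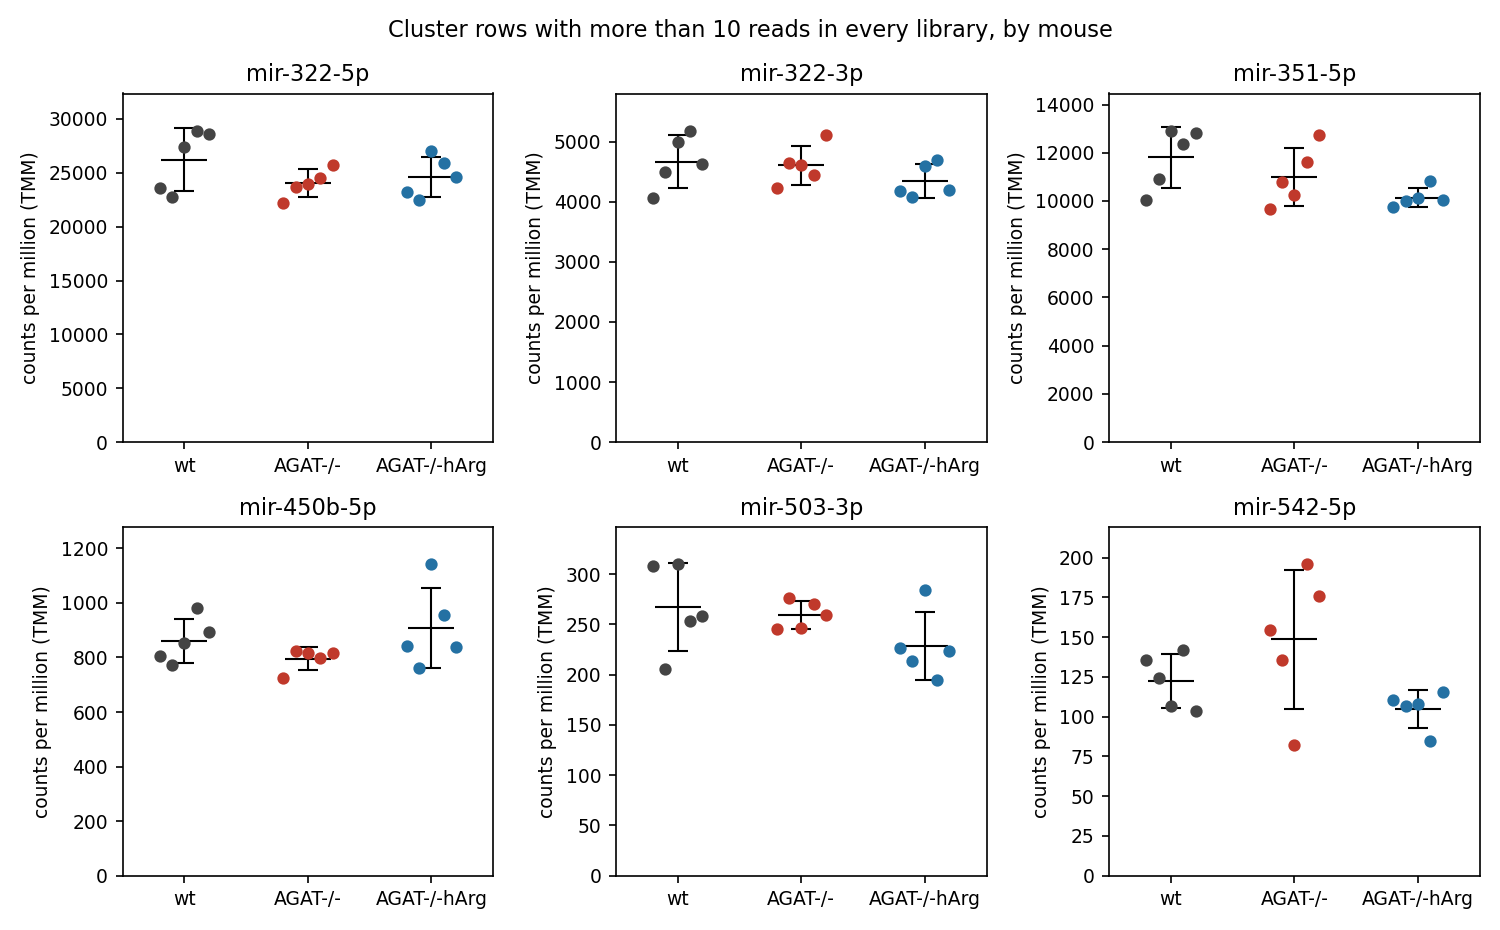
CPM of the 6 members with more than 10 reads in every library, 1 point per mouse in the order of the mouse numbers within each group; horizontal lines are group means and bars are SD (n = 5). The groups overlap for each of the 6, and relative to the mean the widest spread is that of mir-542-5p in AGAT-/- (82.1 to 196 CPM, coefficient of variation 29.3%).

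The abundant members varied little between mice of the same group. The mean coefficient of variation within groups was 8.00% for mir-322-5p, 7.62% for mir-322-3p and 8.54% for mir-351-5p, against a median of 13.6% over the 177 miRNAs with more than 10 reads in every library. For mir-322-5p counting error alone would give 0.940%, so that counting was a small part of its spread. For mir-542-5p the coefficient was 18.2% and counting error alone would give 13.3%.

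The comparison of AGAT-/- with wt addresses the effect of AGAT deficiency in the LV. More than 10 reads over the 10 libraries, the condition for testing, were reached by 11 of the 14 members. None of the 11 passed the FDR of 0.05 in edgeR, where 12 of 562 miRNAs tested did (2.14%), and 0 of the 11 had groups that did not overlap in CPM, against 19 of 562 (3.38%). An unadjusted p under 0.05 was given by edgeR to 0 of the 11 and to 60 of all 562 (10.7%), and DESeq2 and limma-voom also called 0 at the FDR and 0 at the unadjusted level. For mir-322-5p the log2 fold change was -0.14 (95% interval -0.30 to 0.01, SE 0.07, edgeR FDR 0.534). mir-351-5p had a log2 fold change of -0.12 (-0.30 to 0.06, edgeR FDR 0.691) and mir-542-5p one of 0.27 (-0.12 to 0.67, edgeR FDR 0.654). Single mice moved these values: without AGAT-/- mouse 6 that of mir-322-5p became -0.06 and that of mir-351-5p -0.02, without wt mouse 5 they became -0.06 and -0.04, and mir-542-5p ranged from 0.18 without AGAT-/- mouse 9 to 0.42 without AGAT-/- mouse 8. A covariate for the animal number gave mir-322-5p a value of -0.29 and mir-351-5p -0.32. Animal numbers were mostly higher in AGAT-/- than in wt, so this covariate and genotype cannot be fully told apart. Total counts in place of TMM gave -0.09 and -0.07 for the same members. The fitted value was above 0 for 3 members and below 0 for 8, with a median of -0.12 against -0.04 for all miRNAs tested. The sign turned for mir-322-3p, mir-503-3p and mir-450a-1-3p under alternative settings or without 1 mouse. Intervals were wider for members with few reads. For mir-351-3p, with 1 to 6 reads per library in these groups, the log2 fold change was -0.96 but its interval ran from -1.94 to 0.01 (edgeR FDR 0.534), and it became -0.31 with that covariate.

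The comparison of AGAT-/-hArg with AGAT-/- addresses the effect of homoarginine supplementation without its synthesis. Again 11 of 14 members were tested and 0 passed the FDR of 0.05 in edgeR, against 4 of 580 miRNAs (0.690%), and 0 of 11 did not overlap between groups, against 14 of 580 (2.41%). DESeq2 and limma-voom also called 0 of the 11. An unadjusted p under 0.05 was given to 1 member, mir-542-5p, by each of the 3 tools, where edgeR gave it to 43 of all 580 (7.41%), so that 1 of 11 was close to the share of all miRNAs. Its log2 fold change was -0.49 (95% interval -0.87 to -0.11, SE 0.18, edgeR FDR 0.367). When single mice were left out, this value ranged from -0.63 to -0.37, with 0.0699 as the lowest edgeR FDR. mir-322-5p had a log2 fold change of 0.05 (-0.07 to 0.17, edgeR FDR 0.942), which turned to -0.02 without AGAT-/-hArg mouse 13 and became 0.12 with total counts. mir-450b-5p had a log2 fold change of 0.19 (-0.02 to 0.41, edgeR FDR 0.716), which became 0.07 without the same mouse 13. mir-351-5p had one of -0.11 (-0.25 to 0.03, edgeR FDR 0.830), which became -0.04 with total counts. Fitted values were above 0 for 6 members and below 0 for 5, with a median of 0.05 against 0.01 for all miRNAs tested. The sign turned for mir-322-5p, mir-450b-3p, mir-503-5p, mir-450a-2-3p and mir-450a-1-3p under alternative settings or without 1 mouse.

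AGAT-/-hArg was also set against wt. This comparison shares its animals with the other comparisons, so its values are not independent of them. Of 11 members tested, 0 passed the FDR of 0.05 in edgeR, against 17 of 569 miRNAs (2.99%), and 0 did not overlap between groups, against 22 of 569 (3.87%). DESeq2 and limma-voom called 0 of the 11 as well. An unadjusted p under 0.05 was given to 1 member, mir-351-5p, by each of the 3 tools, where edgeR gave it to 71 of all 569 (12.5%), so that 1 of 11 was no more than the share of all miRNAs. Its log2 fold change was -0.22 (95% interval -0.39 to -0.06, SE 0.08, edgeR FDR 0.181). mir-322-5p had a log2 fold change of -0.09 (-0.26 to 0.07, edgeR FDR 0.741). With total counts in place of TMM this value became 0.02 and that of mir-351-5p -0.11, in a comparison where that scaling moved the median of all miRNAs from 0.01 to 0.12. Fitted values were above 0 for 4 members and below 0 for 7, with a median of -0.09 against 0.01 for all miRNAs tested. Alternative settings or leaving out 1 mouse turned the sign of mir-322-5p, mir-322-3p, mir-450b-5p, mir-503-5p and mir-450a-1-3p, so these counts depend on the processing.

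**Figure D3:**
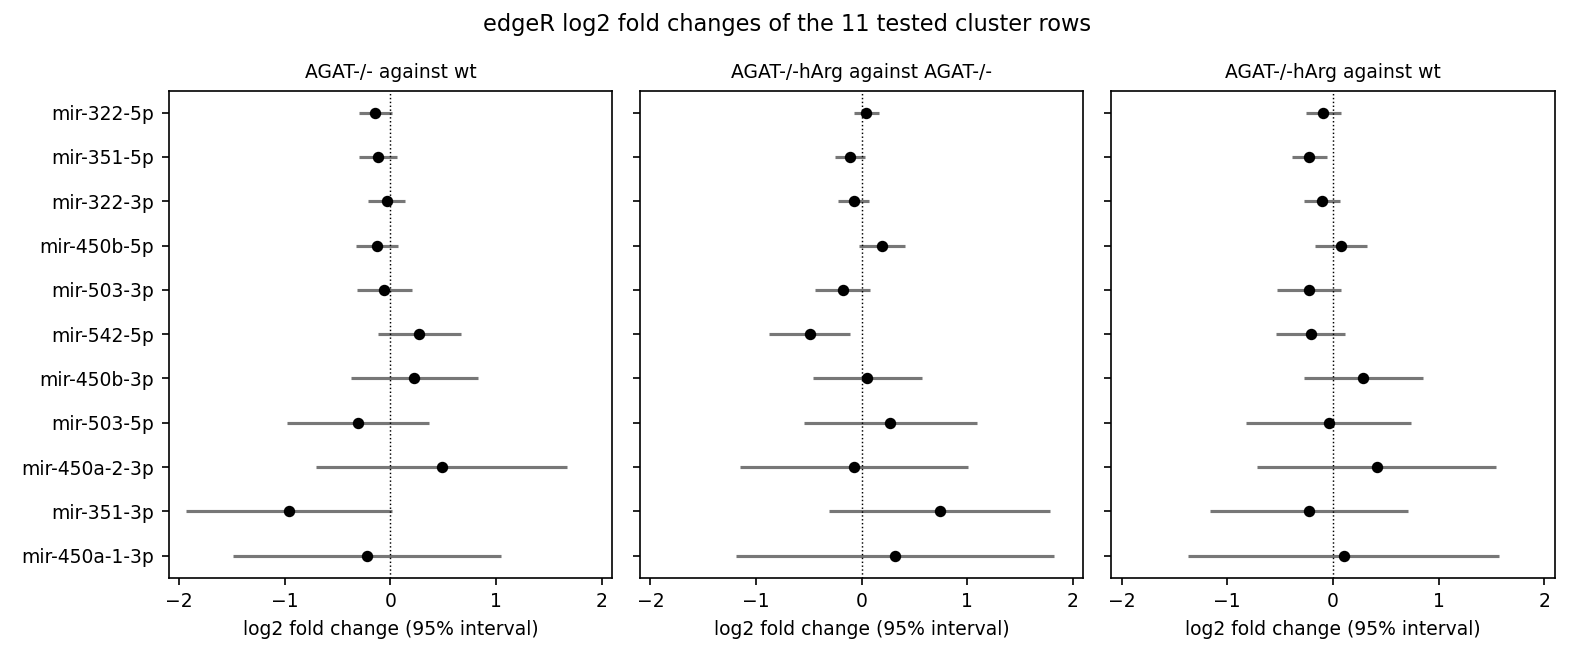
Fitted log2 fold changes (points) with 95% intervals (lines) of the 11 tested members in the 3 comparisons, from edgeR and ordered by abundance. Intervals are narrow for the abundant members at the top and wide for the scarce members at the bottom, and those that exclude 0 belong to mir-542-5p in AGAT-/-hArg against AGAT-/- and mir-351-5p in AGAT-/-hArg against wt, neither of which passed the FDR.

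Ratios between members of the cluster do not depend on the depth or scaling of a library, and were used to ask whether members moved apart. mir-322 was the only precursor with more than 10 reads of both arms in every library. Its 5p arm was counted 5.04 to 6.19 times as often as its 3p arm, on average 5.62 ± 0.415 times in wt, 5.22 ± 0.185 in AGAT-/- and 5.67 ± 0.195 in AGAT-/-hArg (SD, n = 5 each). In log2 units the ratio differed by 0.12 for AGAT-/-hArg minus AGAT-/- (two-sided exact permutation p = 0.0238, adjusted over the 3 comparisons 0.0714), by -0.10 for AGAT-/- minus wt (exact p = 0.103, adjusted 0.155) and by 0.01 for AGAT-/-hArg minus wt (exact p = 0.770, adjusted 0.770). None of the 3 passed 0.05 after adjustment. Leaving out AGAT-/- mouse 9 brought the adjusted p of AGAT-/-hArg against AGAT-/- to 0.0238 with a difference of 0.14, and leaving out wt mouse 2 brought that of AGAT-/- against wt to 0.0357 with a difference of -0.14. So single mice decided on which side of 0.05 these values fell.

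The other 5 abundant members were each set against mir-322-5p in the same library, giving 15 tests over the 3 comparisons. Differences are given as the group named first minus the other. The exact permutation p was under 0.05 in 6 of the 15 and the adjusted p at most 0.05 in 0, with the lowest adjusted p at 0.119. Of the 6, 4 belonged to AGAT-/-hArg against AGAT-/-, 2 to AGAT-/-hArg against wt and 0 to AGAT-/- against wt, each of 5. Of the 171 miRNAs outside the cluster with more than 10 reads in every library, the same ratio to mir-322-5p had an exact p under 0.05 for 11 (6.43%), 22 (12.9%) and 27 (15.8%) in the same order. The 15 tests share mir-322-5p and the mice, so they are not independent and their count is given as a description. The smallest two-sided p that 5 mice against 5 can give is 0.00794.

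mir-351-5p was read 45.1% as often as mir-322-5p in wt (42.6% to 48.0%), 45.7% in AGAT-/- (42.7% to 49.5%) and 41.3% in AGAT-/-hArg (37.4% to 44.5%). On the log2 scale this ratio differed by -0.15 between AGAT-/-hArg and AGAT-/- (exact p = 0.0317, adjusted 0.119) and by -0.13 between AGAT-/-hArg and wt (exact p = 0.0397, adjusted 0.119). mir-450b-5p went the other way, at 3.29% of mir-322-5p in wt (3.11% to 3.42%), 3.31% in AGAT-/- (3.17% to 3.47%) and 3.67% in AGAT-/-hArg (3.39% to 4.23%). Its log2 ratio differed by 0.14 between AGAT-/-hArg and AGAT-/- and by 0.15 between AGAT-/-hArg and wt (exact p = 0.0476 and adjusted 0.119 for both). Without AGAT-/-hArg mouse 13 these differences were 0.09 and 0.10 (exact permutation, adjusted p = 0.253 for both). The groups overlapped in each case, and neither member's ratio passed 0.05 after adjustment.

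mir-503-3p was read 1.03% as often as mir-322-5p in wt, 1.08% in AGAT-/- and 0.928% in AGAT-/-hArg, with a log2 difference of -0.23 between AGAT-/-hArg and AGAT-/- (exact p = 0.0238, adjusted 0.119). For mir-542-5p the share was 0.473%, 0.618% and 0.429%, and the log2 difference between AGAT-/-hArg and AGAT-/- was -0.48 (exact p = 0.0635, adjusted 0.136). The ratio of mir-322-3p to mir-322-5p, the arm ratio turned over, had an adjusted p of 0.119 among the 15 tests for AGAT-/-hArg against AGAT-/- (exact permutation). All of these differences with AGAT-/-hArg coincide with the change of sequencing lane, whose part in them was not tested.

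**Figure D4:**
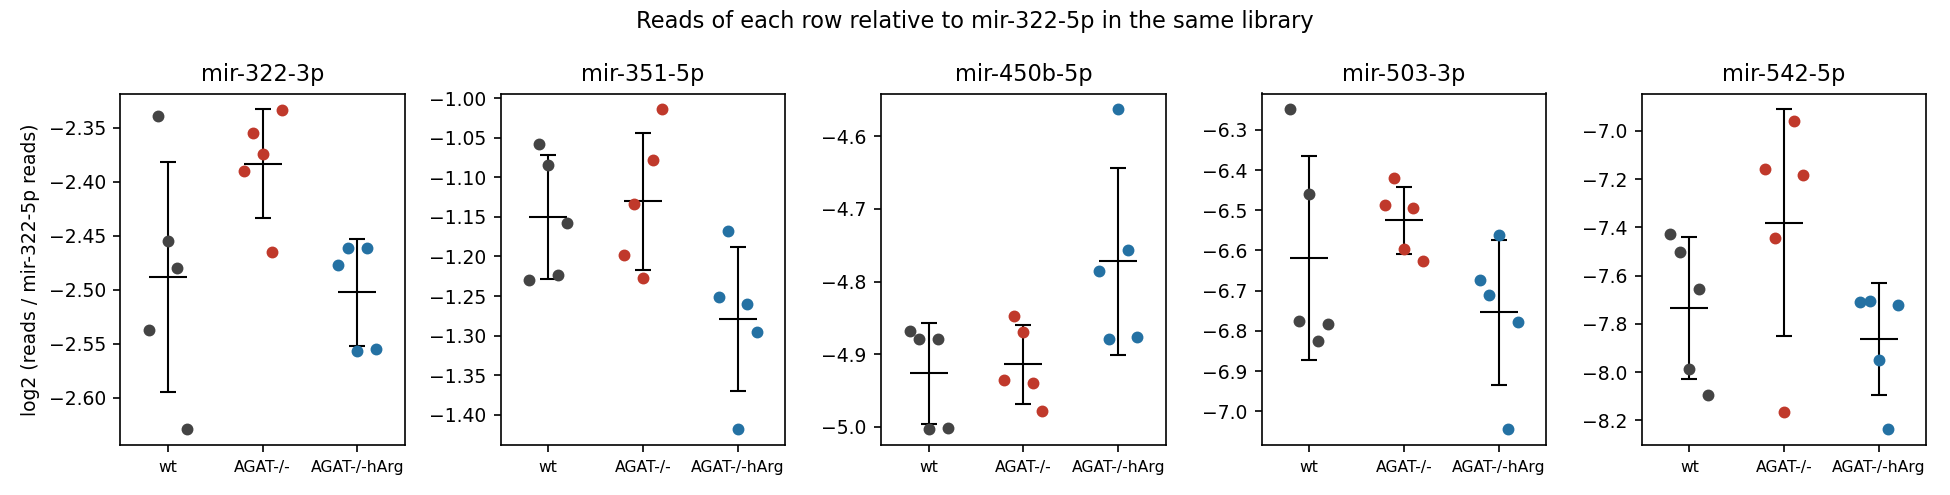
Log2 ratio of the reads of each member to those of mir-322-5p in the same library, with 0.5 added to both, 1 point per mouse; horizontal lines are group means and bars are SD (n = 5), and each panel has its own axis. AGAT-/-hArg mice lie lower for mir-351-5p and higher for mir-450b-5p on average, with ranges that overlap those of the other groups.

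Variation between mice within groups was then compared across the cluster. The group mean was taken off the log2 CPM of each mouse, and each of the 5 other abundant members was correlated with mir-322-5p over the 15 mice. mir-450b-5p had the highest Pearson coefficient, r = 0.82 (permutation p = 7.0e-05, adjusted over the 5 members 3.5e-04). Its Spearman rho was 0.82 (permutation p = 0.00129, adjusted 0.00292), and the highest rho was that of mir-322-3p. For mir-322-3p Pearson r was 0.80 (permutation p = 0.00193, adjusted 0.00322) and rho 0.83 (permutation p = 0.00104, adjusted 0.00292). For mir-351-5p r was 0.78 (permutation p = 0.00177, adjusted 0.00322) and rho 0.81 (permutation p = 0.00175, adjusted 0.00292). These 3 members thus rose and fell with mir-322-5p from mouse to mouse, although mir-450b lies at the far end of the cluster.

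The other members did not pass the test. For mir-503-3p, the neighbour of mir-322, r was 0.33 (permutation p = 0.358, adjusted 0.448) and rho 0.29 (permutation p = 0.373, adjusted 0.466), and for mir-542-5p r was -0.06 (permutation p = 0.791, adjusted 0.791) and rho 0.04 (permutation p = 0.904, adjusted 0.904). Both were counted far less often, so that counting error weighed more on them, and its part in the lower coefficients was not tested.

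Without wt mice 1 and 2, the 2 farthest from the median of mir-322-5p in log2 CPM with the group mean taken off, r over 13 mice was 0.86 for mir-450b-5p, 0.77 for mir-322-3p and 0.62 for mir-351-5p (permutation p = 0.00132, 0.00760 and 0.0186). Within the 10 libraries of lane 8, r was 0.87, 0.78 and 0.85 in the same order (permutation p = 0.00436, 0.0223 and 0.00375). Lane 2 held 5 mice, and no coefficient was taken over them alone. Members measured in the same library share its depth and scaling factor. With total counts in place of TMM r was 0.83, 0.76 and 0.73. For mir-503-3p r was 0.53 with total counts (permutation p = 0.0970, adjusted 0.121), and for mir-542-5p it was -0.14 (permutation p = 0.570, adjusted 0.570).

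Over the 171 miRNAs outside the cluster with more than 10 reads in every library, the median r with mir-322-5p was 0.05, and 94 of the 171 had an r above 0. The highest were mir-193b-3p (r = 0.69), mir-181c-3p (0.68), mir-3082-3p (0.61), mir-148b-5p (0.58) and mir-24-1-5p (0.56), given over the 15 mice as a description without a test. None of the 171 exceeded mir-450b-5p, mir-322-3p or mir-351-5p, whereas 33 exceeded mir-503-3p and 104 exceeded mir-542-5p. The 171 were not matched to these members for abundance. Counting error weighs more on miRNAs with few reads, and its part in these ranks was not tested.

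**Figure D5:**
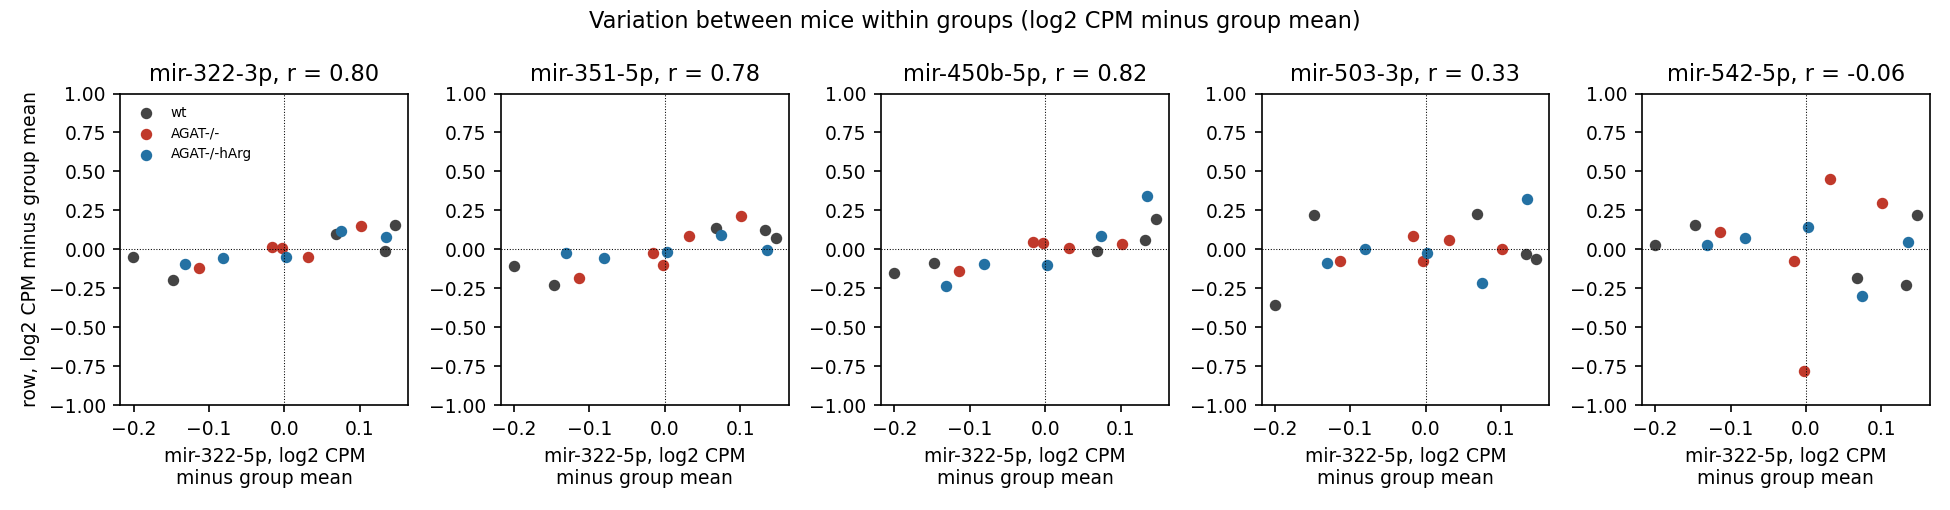
Log2 CPM minus the group mean of each member (vertical axis) against that of mir-322-5p (horizontal axis), 1 point per mouse, coloured by group. Points for mir-322-3p, mir-351-5p and mir-450b-5p rise along the horizontal axis (r = 0.80, 0.78 and 0.82), whereas those for mir-503-3p and mir-542-5p scatter more widely (r = 0.33 and -0.06).

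The scarce members gave little to compare. mir-450b-3p had 7 to 23 reads per library and mir-503-5p 4 to 17, while mir-450a-2-3p, mir-351-3p and mir-450a-1-3p had at most 8, 7 and 6. The highest mir-503-5p value was 43.6 CPM in AGAT-/-hArg mouse 14 and the lowest 6.57 CPM in AGAT-/-hArg mouse 12. For these 5 members the 95% intervals of the log2 fold change included 0 in each comparison, from -1.94 at the lowest to 1.83 at the highest.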

How the data were processed

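RNA of LV tissue from 15 mice had been sequenced with TruSeq Small RNA libraries on an Illumina HiSeq instrument. The authors mapped the reads with CLC Genomics Workbench to murine miRBase sequences and deposited raw read counts, 1 value per mature arm and library. The processing notes of the submitters name GRCm38, and software versions are not given in the sources used here. For each comparison, every miRNA whose counts in the 10 libraries added up to more than 10 was tested with edgeR 4.0.16 (TMM, quasi-likelihood, Benjamini-Hochberg FDR of at most 0.05, R 4.3.3). The edgeR fit was tested on simulated counts of AGAT-/- against wt with 2-fold changes. It recovered 56.3% of the changed miRNAs, and 96.5% of those with a mean over 10 reads. Smaller changes, ratios and correlations were not part of that simulation. DESeq2 1.42.0, limma 3.58.1 and other scalings, filters and leaving out each mouse were alternatives. CPM used TMM factors of all 15 libraries, and log2 CPM a prior count of 1. Ratios used 0.5 added reads and two-sided exact permutation tests over the 252 assignments of 10 mice. Correlations used 100000 permutations of mice within groups (Python 3.11.15, numpy 2.4.6, scipy 1.17.1).

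Counts of 2 mice of a group differed beyond sampling noise in each of the 30 pairs (chi-square per degree of freedom 2.61 to 17.5), so no library was taken for a copy of another. Limits for 0 reads cover counting error only, as reads carried no molecular identifiers. Named miRNAs were all cluster members, those of the mir-15, mir-16, mir-195, mir-497 and mir-125 families, cell type markers of the heart, and the 5 outside the cluster with the highest r with mir-322-5p. Of the listed families all share a member's seed except mir-497b (4 reads in all), which was left out of the share of reads. Other RefSeq miRNAs with the seed of a member (mir-6342, mir-6352, mir-6353, mir-6367, mir-6394, mir-6419 and mir-6966-5p) were not among the miRNAs named by this rule. The members and lists were chosen with earlier results of these data known.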

Additional observations from a re-analysis of the deposited data

Results flagged for a closer look

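In 3 of 57 sets of 5 mice examined (5.26%), a single mouse stood apart from the other 4 of its group by a gap of more than 0.71 of the group's range, and chance alone gives about 1 in 20. mir-542-5p in AGAT-/-hArg mouse 14 was 84.6 CPM, below the other supplemented mice at 107 to 116 CPM. mir-450a-2-3p in AGAT-/- mouse 6 was 19.3 CPM, from 8 reads, above the other AGAT-/- mice at 3.47 to 6.95 CPM. mir-450b-5p in the same AGAT-/- mouse 6 was 723 CPM, below the others at 798 to 823 CPM. The cause was not tested for any of them.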

How the results depend on the processing

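The count of cluster members past the FDR was 0 in all 61 alternative fits over the 3 comparisons, which included DESeq2, limma-voom, other scalings and filters, all 15 libraries in 1 fit, the mir-450a entries summed and each mouse left out. The log2 fold change of mir-322-5p kept its sign in 59 of 61 settings. For AGAT-/- against wt it ranged from -0.29, with the animal number (mostly higher in AGAT-/- than in wt) as a covariate, to -0.0555 without AGAT-/- mouse 6. For AGAT-/-hArg against wt it became 0.0232 with total counts, the cause of which was not tested, and ranged from -0.134, without wt mouse 2, to -0.0376, without wt mouse 4, when single mice were left out. For AGAT-/-hArg against AGAT-/- it ranged from -0.0222, without mouse 13, to 0.0639 when single mice were left out.

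Leaving out 1 mouse, the mir-322 arm ratio difference (log2) ranged from -0.142 to -0.0695 for AGAT-/- against wt, 0.105 to 0.140 for AGAT-/-hArg against AGAT-/- and -0.0228 to 0.0496 for AGAT-/-hArg against wt. In the same way the ratio to mir-322-5p ranged from -0.0496 to 0.0228 for mir-322-3p in AGAT-/-hArg against wt, -0.00846 to 0.0446 for mir-351-5p and -0.00689 to 0.0283 for mir-450b-5p in AGAT-/- against wt. The other ratios kept their direction, and adding 1 read in place of 0.5 changed none, but single mice moved several by over 1.5 times. That of mir-450b-5p went from 0.142 to 0.0895 in AGAT-/-hArg against AGAT-/- and from 0.154 to 0.102 in AGAT-/-hArg against wt without mouse 13. That of mir-322-3p ranged from 0.0695 to 0.142, of mir-503-3p from 0.0420 to 0.186 and of mir-542-5p from 0.247 to 0.548 in AGAT-/- against wt. In AGAT-/-hArg against wt that of mir-503-3p ranged from -0.187 to -0.0429 and of mir-542-5p from -0.220 to -0.0367. The 5 correlations kept their sign and their side of 0.05 with total counts and within lane 8, with r of mir-503-3p from 0.329 to 0.533 with total counts. No paired analysis was done, as the sources used here do not say which mice of different groups shared a litter. Depth gave the 5 scarce members at most 23 reads per library, and their intervals were the widest. In comparisons with AGAT-/-hArg, supplementation and lane cannot be told apart.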
